A study of Ovis aries with 6 samples.

Results

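The genome of sheep perirenal adipose tissue was divided into fixed 1 kb windows, and the windows whose DNA methylation level differed most between animals of the same stage are described here. A window entered with at least 5 CpGs that each had 5 or more reads in every one of the 6 animals, and its level in an animal is the methylated share of all reads covering those CpGs. Of 458877 autosomal windows, which are 19.2% of the 2395822 autosomal windows that hold a CpG, 581 were chosen because the highest and lowest of the 3 fetal animals lay at least 40 percentage points apart. The same rule applied to the 3 lambs chose 668 windows. Both stages share 29 of these windows, and 1220 windows were chosen by these measured levels in at least 1 stage.

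The animals were wild type, pure-bred Merino sheep that received no treatment, and each sample came from a separate animal. The 3 fetal animals were sampled at 132 days post conception, with term at 150 days, and their perirenal fat is labelled brown adipose tissue. For the 3 lambs, whose perirenal fat is labelled white adipose tissue, the growth protocol gives an age of 89 days from birth and the design text one of 80 days. Sample descriptions end in TV for fetal animals and VEH for lambs, so the meaning of these tags and the stage cannot be told apart. Whole pieces of tissue were ground for DNA, so a different mix of cell types and a different methylation within 1 cell type cannot be told apart in any value given here. No expression was measured in these samples, so the labelled tissue types were not checked against marker genes.

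In bisulfite sequencing unmethylated cytosine is read as T, and the methylation level of a CpG is the share of its reads that keep C. Most CpGs of mammalian tissue are highly methylated. Unmethylated regions (UMRs) are CpG-dense stretches with little methylation and often hold promoters, low-methylated regions (LMRs) are CpG-poorer stretches of intermediate level that often hold distal regulatory elements, and DNA methylation valleys (DMVs) are long unmethylated domains, often around developmental genes. Windows whose level differs between individuals of 1 tissue are known as variably methylated regions. In mammals such differences can follow a nearby sequence variant, the parent of origin, the mix of cells or events of early development, and the data here hold no genotype to set beside them.

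Covering reads at CpG positions totalled between 136938075 and 209550245 per animal, with a mean coverage of an autosomal CpG from 5.22 to 8.00 reads. Over all windows the level of fetal animals 1 to 3 was 69.2, 69.1 and 69.1%, and that of lambs 1 to 3 was 68.8, 70.6 and 69.8%. Lamb 2 had the highest level. Mean reads per window ran from 62.8 to 66.3 in lambs 2 and 3 and fetal animal 2, and was higher in the other 3 animals, up to 86.3. Intervals given are 95% Wilson intervals and cover counting error only. The counts of a window are of reads, not of marked molecules, and neighbouring CpGs share fragments. A read that covers several CpGs is counted at each of them, so intervals of a level are too narrow. Intervals of a share of windows take the windows as separate.

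The windows that varied within a stage were rare and lay at intermediate methylation. The 581 windows variable among fetal animals were 0.127% of all windows, the 668 variable among lambs 0.146%, those variable in at least 1 stage 0.266% and the 29 variable in both 0.00632%. These shares come from the values that chose the windows and carry no test. Across the windows variable among fetal animals the median level was 34.8% in the lowest animal, 60% in the middle one and 80% in the highest. Across those variable among lambs the same medians were 35.1, 59.5 and 80%. The mean of the stage lay between 30 and 70% in 447 (76.9%) of the fetal set and in 532 (79.6%) of the lamb set, against 24.1 and 23.3% of all windows. A distance of 40 points keeps this mean away from both ends of the scale, so these shares are partly fixed by the rule. The lamb mean lay at 30 to 70% in 385 of the 581 fetal-set windows, against 23.3% of all windows. The fetal mean did so in 458 of the 668 lamb-set windows, against 24.1%.

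The distance between the highest and lowest animal was mostly close to the threshold. Its median was 43.5 points in the fetal set and 43.0 in the lamb set, and its largest values were 78.4 and 77.6 points. Over all windows the median distance was 8.70 points among fetal animals and 8.86 among lambs, and 99% of windows lay under 30.1 and 30.8 points. A distance of at least 50 points was found in 83 windows (14.3%) of the fetal set and 96 (14.4%) of the lamb set, and one of at least 60 points in 14 and 10. A change from under 20% in the lowest animal to over 80% in the highest was seen in 3 windows of each set, so the animals seldom stood at opposite ends of the scale.

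Within the chosen windows the 3 animals of a stage were usually spread out. The middle animal lay clear of both ends in 403 windows (69.4%) of the fetal set and 495 (74.1%) of the lamb set, counted where it fell in the middle 60% of the distance. One high animal stood alone in 62 fetal and 61 lamb windows, and one low animal alone in 116 and 112. These patterns were not counted over all windows, so they describe the chosen windows and are not called particular to them. No animal supplied the highest level in most windows. Among fetal animals the largest share of highest levels held by 1 animal was 40.4%, against 34.2% over all windows, and among lambs it was 45.1% for lamb 2, against 39.8% over all windows.

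The threshold falls within a continuous run of distances. A window is called a UMR or LMR window here when it overlaps such a region of the authors' lists by at least 1 base, whatever its own level. The 3 fetal windows just inside had a distance of exactly 40 points, such as chr3:97200001-97201000, an LMR window with levels of 70, 43.4 and 30%. The 3 just outside lay at 39.98 to 39.99 points, such as chr11:56646001-56647000, also an LMR window, with levels of 71.7, 31.7 and 55.7%. Among lambs the 3 windows just inside were again at exactly 40 points, such as chr4:11110001-11111000 outside the lists, with levels of 60, 91.4 and 100%. The 3 just outside were a UMR window at chr23:60466001-60467000, a UMR window at chr24:41557001-41558000 and a window outside the lists at chr11:48657001-48658000.

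Windows with few reads were chosen most often. With 25 to 34 reads in the shallowest of the 6 animals, 266 windows (0.280%) were variable among fetal animals and 295 (0.311%) among lambs. With 75 to 99 reads the shares were 0.0440 and 0.0396%, and with 100 or more they were 0.0576 and 0.0516%. A chosen window held a median of 5 usable CpGs, against 7 over all windows. With these minimums a distance of 40 points sets the Wilson intervals of the highest and lowest animal apart by construction, and the gap between the intervals was 20 points or more in 208 fetal and 223 lamb windows. Of 200209 windows with at least 50 reads in every animal, 100 were variable among fetal animals, 120 among lambs, 8 in both and 212 in at least 1 stage. These deeper windows are 43.6% of all windows and 17.4% of the chosen ones, and several of the results below are given for them as well.

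**Figure D1:**
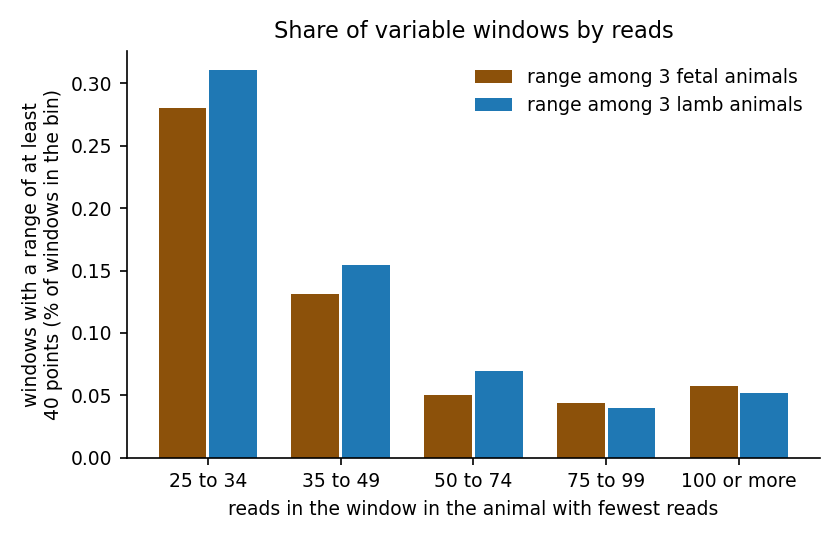
Share of windows, in percent, with at least 40 points between the highest and lowest animal, by the number of reads in the shallowest of the 6 animals, as 1 bar for the 3 fetal animals and 1 for the 3 lambs. The share falls from 0.280 and 0.311% at 25 to 34 reads to 0.0440 and 0.0396% at 75 to 99 reads.

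Animals of a stage also differed a little more in coverage in the chosen windows. The reads of a window were scaled by each animal's total over all windows, and the largest scaled value of the 3 animals was divided by the smallest. This ratio had a median of 1.37 in the fetal set against 1.31 over all windows, and 1.34 in the lamb set against 1.28. A ratio of 2 or more was found in 3.61% of the fetal set and 3.29% of the lamb set, against 1.29 and 0.883% of all windows. Coverage per CpG over 3 times the median was found in 0 chosen windows and in 501 of all windows. The part of uneven coverage in the distances was not tested.

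Regions that the authors listed as low in methylation held more of the variable windows than of all windows that met the minimums. The authors deposited lists of DMVs, UMRs and LMRs for each stage, and a window was put in a class when it overlapped a region of either stage by at least 1 base, in the order DMV, UMR, LMR. The lists come from the same animals, so the shares are described and not tested. Listed regions held 26.2% of all windows, 51.1% of the fetal set, 53.3% of the lamb set and 72.4% of the 29 windows variable in both. Among windows with at least 50 reads they held 32.6% of all windows, 71% of the fetal set and 78.3% of the lamb set. With looser minimums the gap was smaller. Of windows variable in at least 1 stage they held 25.3% with 3 reads per CpG, against 18.9% of all windows that then entered, and 26.3% with 3 CpGs per window, against 20.8%. The same share was 51.8% with the minimums used here.

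LMRs, the class of intermediate level, held the largest share of the listed variable windows. They made up 16.9% of all windows and held 228 (39.2%) of the fetal set and 258 (38.6%) of the lamb set. The share of LMR windows that were variable was 0.294% among fetal animals and 0.333% among lambs, against 0.0839 and 0.0921% of windows outside the lists. UMRs, where promoters are common, made up 8.67% of all windows and held 69 (11.9%) of the fetal set and 98 (14.7%) of the lamb set, which are 0.173 and 0.246% of UMR windows. In DMVs 0 of 2953 windows were variable in either stage, a count that allows a share of up to 0.102%. This limit, and the one for DMRs below, takes 3 as the largest count that a 0 allows and is not a Wilson interval. Few DMV windows had a mean of 30 to 70%, 180 by the fetal and 215 by the lamb mean, so the 0 says little about DMVs at that level.

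Levels inside the chosen windows followed the class they lay in. Variable UMR windows of the fetal set had median levels of 20, 43.9 and 67.3% in the lowest, middle and highest animal. LMR windows of that set had medians of 28.3, 50 and 73.7%, and those outside the lists 41.6, 70.3 and 87.1%. In the lamb set the medians were 22.6, 42.7 and 67.5% in UMRs, 31.1, 52.3 and 76.3% in LMRs and 42.7, 68.6 and 86.9% outside the lists. Of the fetal set, 202 windows (34.8%) lay in regions listed in both stages, 53 in regions of the fetal lists alone and 42 in regions of the lamb lists alone. Of the lamb set, 248 (37.1%) lay in regions of both stages, 54 in fetal lists alone and 54 in lamb lists alone. Regions of both stages held 20% of all windows.

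Windows of like level were then set side by side. Level was taken from the stage that did not choose the window, so that the distance itself did not enter it. The class still rests on the lists of both stages, and thus also on the animals that chose the window, so these shares are described and not tested. Among windows with a lamb mean of 30 to 70%, 0.403% of UMR windows, 0.417% of LMR windows and 0.286% of windows outside the lists were variable among fetal animals. Among windows with a fetal mean of 30 to 70% the shares variable among lambs were 0.604, 0.457 and 0.326%. With at least 50 reads as well, they were 0.250, 0.181 and 0.0570% among fetal animals, on 17, 44 and 8 windows, and 0.390, 0.212 and 0.0780% among lambs, on 26, 52 and 12 windows. Windows outside the lists had the lowest share of these 3 classes in each of these settings.

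**Figure D2:**
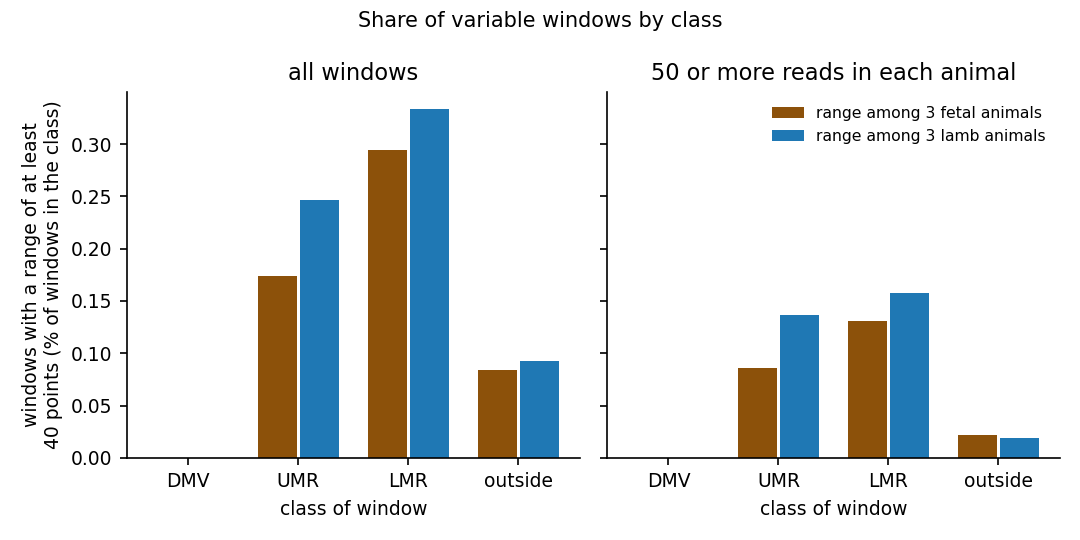
Share of the windows of each class, in percent, with at least 40 points between the highest and lowest animal, for DMVs, UMRs, LMRs and windows outside the lists; the left panel has all windows and the right panel those with at least 50 reads in every animal, with 1 bar per stage. LMR windows have the highest shares in the left panel, 0.294% among fetal animals and 0.333% among lambs, and DMVs are at 0 in both panels.

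Regions listed by the authors as differing between stages (DMRs) held 2 of the variable windows, a count too small to set against the background. Of 588 windows that overlap a DMR, 0 were variable among fetal animals, which allows a share of up to 0.510%, and 2 were variable among lambs. DMR windows were 0.128% of all windows and 0.299% of the lamb set. The first, in a UMR and a DMR of the hyper list at chr2:2206001-2207000, had levels of 34.4, 47.5 and 35.2% in the fetal animals, 1 to 3, and 44.2, 87.4 and 67.1% in the lambs, 1 to 3. Its lamb 1 fell within the fetal levels and the other lambs lay above all of them. The second, in a UMR and a DMR of the hypo list at chr20:27820001-27821000, had fetal levels of 59.0, 85.7 and 74.5% and lamb levels of 35.2, 27 and 81.1%. Here lambs 1 and 2 lay below every fetal animal and lamb 3 lay among them, so the stages overlapped in both windows.

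The CpG density of the chosen windows was close to that of all windows, and was higher among windows with many reads. The density is the number of CpG positions listed in the 1 kb window, whatever their coverage. Its median was 15 in the fetal set, 16 in the lamb set and 28 in the 29 windows variable in both, against 17 over all windows. At least 20 CpGs were found in 34.1, 40.4 and 65.5% of these sets, against 40% of all windows. Among windows with at least 50 reads the medians were 28.5 in the fetal set and 28 in the lamb set, against 22 over all such windows. At least 20 CpGs were found there in 68% of the fetal set and 75.8% of the lamb set, against 60.2% of all such windows.

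The share of windows variable in at least 1 stage had no single trend with density over all windows. It was 0.408% at 5 to 9 CpGs, 0.207% at 20 to 29 and 0.322% at 60 or more. With at least 50 reads it was 0.0853% at 5 to 9 CpGs, 0.0761% at 10 to 19, 0.0899% at 20 to 29, 0.139% at 30 to 39, 0.173% at 40 to 59 and 0.230% at 60 or more. With 25 to 49 reads it was 0.434% at 5 to 9 CpGs, 0.343% at 10 to 19, 0.382% at 20 to 29 and 0.662% at 30 to 39. Within both ranges of reads, windows with 30 or more CpGs were thus variable more often than windows with 10 to 29. Density also follows the class, as variable UMR windows of the fetal set held a median of 35 CpGs, those in LMRs 17 and those outside the lists 12.

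The difference between the animals ran through most CpGs of a window and was far smaller in the adjacent windows. All usable CpGs had the highest animal of the window above its lowest in 370 windows (63.7%) of the fetal set and 416 (62.3%) of the lamb set, and at least 80% of the CpGs did so in 541 (93.1%) and 630 (94.3%). These CpGs chose the windows, so this is a description of them. Without the CpG that added most to the distance, 196 fetal and 206 lamb windows still had 40 points between the same animals, and 544 (93.6%) and 620 (92.8%) had at least 30. Most windows thus fell below the threshold without this CpG, and few fell below 30 points.

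CpGs of the same windows that were too shallow for the rule gave a smaller difference in the same order. With at least 10 summed reads in both animals, the median difference at these CpGs was 11.7 points in 534 windows of the fetal set and 11.8 in 640 of the lamb set, with the same animal higher in 80 and 79.8%. Over all windows, treated the same way, the median was 1.43 and 1.65 points, with the same animal higher in 57.2 and 57.8%. In chosen windows with at least 50 reads the median was 23.0 points among fetal animals and 22.5 among lambs, with the same order in 91.8 and 89.0%. Such CpGs may lie on the same fragments as the usable ones, so they are not fully separate measurements.

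Windows next to a chosen one, taken with at least 3 usable CpGs, showed little of the difference. The animal highest in the chosen window was above its lowest by a median of 0.741 points in 645 adjacent windows of the fetal set and by 1.24 points in 808 of the lamb set, with the same order in 53.6 and 56.2%, against 50.5 and 51.5% beside windows in general. A difference of at least 20 points in the same order was found in 6.82 and 7.92% of adjacent windows, against 2.73 and 3.07% beside windows in general. Beside chosen windows with at least 50 reads such a difference was found in 10.6 and 8.47%, against 2.47 and 2.83% beside all such windows. The order there was the same in 53.0 and 58.2%, against 50.7 and 51.6%. Around all chosen windows a difference of at least 20 points was found in 3.21 and 4.61% at 2 to 5 kb, and in 3.42 and 4.49% at 6 to 10 kb.

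**Figure D3:**
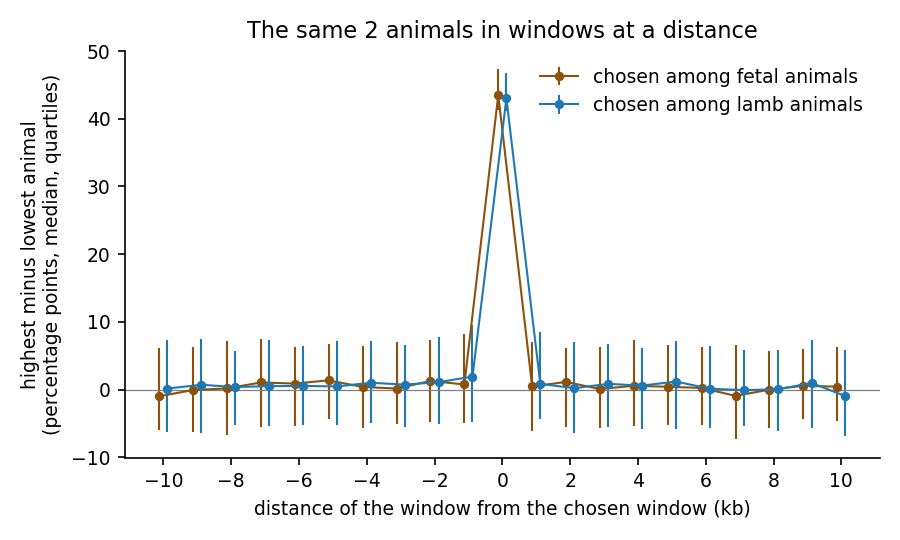
Median difference in methylation level, in percentage points, between the animal highest and the animal lowest in the chosen window, by distance in kb from that window, for windows variable among fetal animals and among lambs; points are medians and vertical lines span the quartiles. Away from the centre, where the rule fixes the difference, the medians lie close to 0, at 0.741 and 1.24 points over the adjacent windows.

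Windows chosen in 1 stage were also more variable in the other stage, whose levels the rule had not used. In the 581 windows chosen among fetal animals the distance between the highest and lowest lamb had a median of 16.8 points, with quartiles of 10.9 and 25.9, against 8.86 points over all windows. It reached 20 points in 40.1% of them against 8.37% of all windows, and 40 points in 4.99%, the 29 windows variable in both stages, against 0.146%. In the 668 windows chosen among lambs the fetal distance had a median of 16.8 points against 8.70 over all windows. It reached 20 points in 37.9% against 7.68% of all windows, and 40 points in 4.34% against 0.127%. The animals are different in the 2 stages, while the windows, their CpGs, their typical level and their depth are shared.

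Depth and level moved with this overlap, so it was read again with each held alike. With at least 50 reads in every animal, 8 of 100 windows chosen among fetal animals (8%) reached 40 points among lambs, against 0.0599% of all such windows, and 8 of 120 chosen among lambs (6.67%) did so among fetal animals, against 0.0499%. With the mean of the other stage at 30 to 70%, a filter that uses the same animals as the distance counted, the shares were 5.97% of 385 windows against 0.497%, and 5.24% of 458 against 0.404%. With both limits they were 10.1% of 69 windows (interval 5.00 to 19.5%) against 0.230%, and 6.67% of 90 (3.09 to 13.8%) against 0.171%. Relative to like windows the share was lower with the level alone held alike, and higher with reads or with both held alike, than over all windows.

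The share rose over the whole scale of distances, not at the threshold alone. Windows with under 10 points among fetal animals reached 40 points among lambs in 0.0570% of cases, those with 10 to 20 points in 0.168%, those with 20 to 30 points in 0.538% and those with 30 to 40 points in 1.45%. In the other direction the shares were 0.0490, 0.138, 0.433 and 1.28%.

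**Figure D4:**
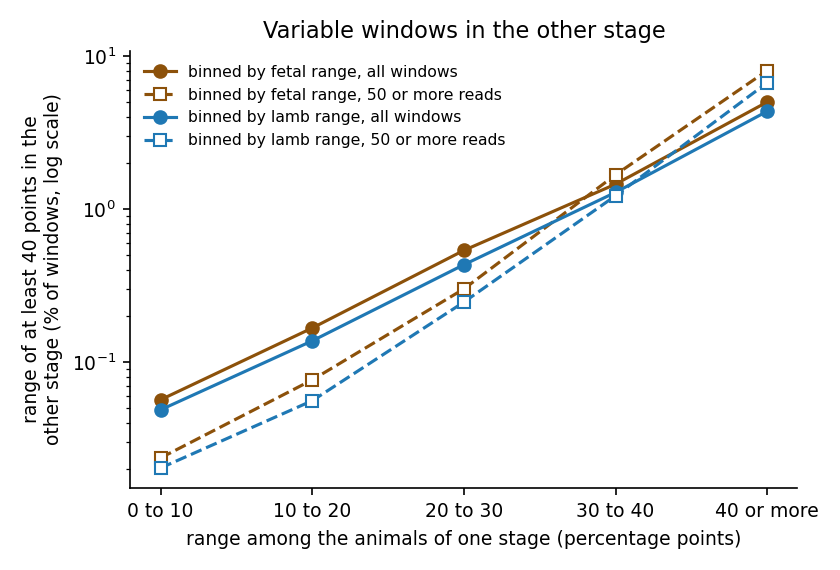
Share of windows, in percent on a log axis, with at least 40 points among the animals of 1 stage, by the distance in points between the highest and lowest animal of the other stage; filled points are all windows and open points on dashed lines those with at least 50 reads in every animal. Over all windows the share among lambs rises from 0.0570% where fetal animals lay within 10 points to 4.99% where they lay at least 40 points apart, and the share among fetal animals from 0.0490 to 4.34%.

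Windows with many reads show what the differences look like. For each stage the 6 windows with the largest distance among those with at least 100 reads in every animal are given, and then examples that vary in both stages. UMR and LMR windows are again windows that overlap such a region by at least 1 base, so their levels are not those of the listed region alone. Of the 6 fetal windows 3 were UMR windows on chromosome 14. The largest distance was at chr14:56681001-56682000, a UMR window that overlaps listed regions of both stages. It held 38 CpGs, of which 25 were usable. Its levels were 75.3, 23.1 and 14.4% in the fetal animals, 1 to 3, and 68.5, 31.5 and 39.3% in the lambs, 1 to 3, on 197 to 316 reads. In each stage 1 animal was far above the other two, and the stages overlapped. Fetal animal 1 was above fetal animal 3 at all 25 CpGs, and in the window before it the lambs lay 29.3 points apart and the fetal animals 12.6.

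The other UMR windows on chromosome 14 held still more CpGs. The one at chr14:49278001-49279000 had 63 CpGs and levels of 53.3, 13.7 and 2.27% in the fetal animals and 14.8, 15.9 and 38.2% in the lambs. One fetal animal was nearly unmethylated and another at an intermediate level. The window at chr14:59550001-59551000 had 66 CpGs and levels of 68.7, 20.1 and 24.7% in the fetal animals and 25.3, 25.3 and 44.2% in the lambs. Here 1 fetal animal stood above all 5 other animals, while in the windows on either side the fetal animals lay within 15.8 and 9.41 points.

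The other 3 of these fetal windows were LMR windows. At chr15:21949001-21950000, which overlaps an LMR of the lamb list, the levels were 65.2, 44.0 and 94.5% in the fetal animals and 51.8, 72.5 and 41.2% in the lambs, on 167 to 336 reads. The window at chr7:97864001-97865000, which overlaps an LMR of the fetal list, had levels of 84.5, 34.5 and 66.1% in the fetal animals and 70.8, 51.6 and 78.8% in the lambs. In both, the animals of each stage were spread over the scale and the stages overlapped.

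One LMR window was among the 6 of both stages. At chr5:104421001-104422000, with 38 CpGs, the levels were 43.6, 86.7 and 35.1% in the fetal animals and 48.6, 37.3 and 88.3% in the lambs, on 110 to 146 reads. In each stage 1 animal was far above the other two, which were under 50%, with distances of 51.6 and 51.0 points. The same order was seen at 15 of 16 usable CpGs in the fetal animals and at all 16 in the lambs.

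Among lambs the largest distance with at least 100 reads was at chr9:92813001-92814000, an LMR window with 37 CpGs. Its levels were 63.1, 65.4 and 27.3% in the fetal animals and 52.2, 19.5 and 89.1% in the lambs, a distance of 69.6 points among lambs and 38.1 among fetal animals. All 17 usable CpGs had the same order, and the lambs lay within 8.36 and 6.80 points in the adjacent windows.

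A UMR window at chr1:111036001-111037000 varied among lambs alone. Fetal levels were 35.8, 28.9 and 27.3%, within 8.53 points, and lamb levels were 77.9, 14.3 and 36.4%, a distance of 63.6 points. The adjacent windows lay within 1.00 and 6.45 points among lambs. A UMR window at chr23:49639001-49640000 had levels of 7.56, 3.85 and 28.6% in the fetal animals and 56.1, 28.4 and 5.88% in the lambs. In it 1 lamb lay above every fetal animal and 1 lamb lay at the fetal low level.

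The last 2 of the 6 lamb windows had a lower and a higher typical level. The UMR window at chr20:27365001-27366000 had levels of 12.4, 51.0 and 7.5% in the fetal animals and 59.6, 31.8 and 12.2% in the lambs, and thus varied in both stages. In the window before it the fetal animals lay 36.1 points apart and the lambs 30.9. Its coverage was uneven, with 364 reads in lamb 1 and at most 202 in any other animal. The window at chr12:658001-659000, outside the lists, had levels of 61.5, 83.7 and 82.8% in the fetal animals and 41.7, 88.3 and 76.7% in the lambs, with 1 animal of each stage below the rest.

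Of windows variable in both stages, those with the largest distances in both are next, on at least 50 reads in every animal. Besides the LMR window on chromosome 5 they were at chr11:60459001-60460000, chr11:14049001-14050000 and chr26:14346001-14347000. The first, a UMR window with 56 CpGs, had levels of 51.0, 18.3 and 0% in the fetal animals and 2.06, 54.1 and 43.9% in the lambs. The 0% rests on 76 reads summed over 12 usable CpGs, and its Wilson interval, up to 4.81%, covers counting error only. By these levels each stage held 1 animal close to 0 and 1 just above 50%.

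The second, with 31 CpGs, overlaps an LMR of the lamb list. It had levels of 80, 83.0 and 32.8% in the fetal animals and 39.6, 81.8 and 31.4% in the lambs. Its 6 animals thus fell at 2 levels, 3 at 80 to 83.0% and 3 at 31.4 to 39.6%, with both levels in each stage. Lambs lay 28.2 and 21.6 points apart in the windows before and after it, and fetal animals 14.2 and 24.4. The third, outside the lists with 25 CpGs, had levels of 96.7, 69.3 and 30.6% in the fetal animals and 50, 97.8 and 67.1% in the lambs. Here the animals of each stage took a low, a middle and a high level, and in the window after it they lay 27.4 points apart among fetal animals and 20.9 among lambs.

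**Figure D5:**
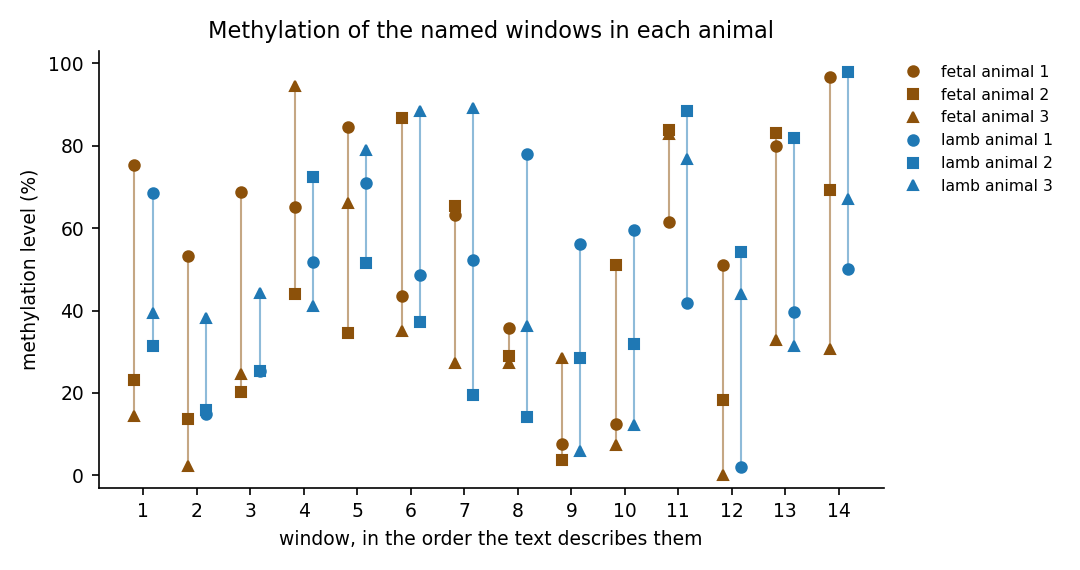
Methylation level, in percent, of the 3 fetal animals and the 3 lambs in the 14 windows described above, numbered in the order of the text; each point is 1 animal, and lines join the lowest and highest animal of a stage. In every window the levels of the 2 stages overlap, and in the window at chr5:104421001-104422000 1 animal of each stage lies far above the others, at 86.7 and 88.3%.

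Variable windows had other variable windows nearby about as often as any window did. There were 0 pairs of adjacent windows within the fetal set, 1 within the lamb set and 3 over both. Of the 1220 windows, 19 (1.56%) had another one within 10 kb, against 1.74% of all windows. The share of windows variable in at least 1 stage ran from 0.188% on chromosome 19 to 0.376% on chromosome 6. Windows within 5 Mb of the last listed position of a chromosome made up 17.7% of the fetal set, 13.6% of the lamb set and 10 of the 29 windows variable in both, against 14.3% of all windows.

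The largest group was of 5 lamb windows on chromosome 11, the first at chr11:5785001-5786000 and the last at chr11:5801001-5802000. Lamb 2 had levels of 93.9, 96.5, 100, 72.4 and 86.7% in them, and was the highest in all 5. Lamb 1 had 63.5, 46.2, 61.0, 47.3 and 64.3%, and lamb 3 had 51.0, 36.3, 34.5, 29.8 and 45.2%, so the order of the lambs was the same in each window. The fetal animals lay within 2.97 to 16.2 points. Lamb 2 also had the fewest reads in each of these windows, from 29 to 90, where fetal animal 1 had up to 301, and the part of this uneven coverage was not tested.

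The stages themselves were compared in every window, since a wide spread within a stage bears on what can be called between them. A quasi-binomial logistic model of methylated against unmethylated reads, with the dispersion moderated over windows and Benjamini-Hochberg adjustment, called 0% of the 458877 windows at an adjusted p under 0.05 with 10 points between the stage means. At an unadjusted p under 0.05 it found 29328 windows (6.39%), and limma on log ratios called 0 windows, with 26785 at an unadjusted p under 0.05. Of the chosen windows, 42 (7.23%) of the fetal set and 56 (8.38%) of the lamb set had an unadjusted p under 0.05. The rule acts on the spread that this test divides by, so nothing is read from these counts. The smallest adjusted p by this model was 0.470 in the fetal set and 0.316 in the lamb set.

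The levels of the stages were apart, with no overlap between fetal animals and lambs, in 50882 windows (11.1%). With 3 animals per stage a share close to this arises from the order of the animals alone, so no stage difference is read from it. They were apart in 4 windows (0.688%) of the fetal set, 8 (1.20%) of the lamb set and 0 of the 29 variable in both, and a wide spread in 1 stage makes such a gap rare by construction. The lamb mean minus the fetal mean had a median of 3.24 points in the fetal set and of -1.59 points in the lamb set, against 0.489 over all windows. In each set the mean of 1 stage is made of the levels that chose the windows, so no shift between stages is read from these medians.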

How the data were processed

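Whole-genome bisulfite libraries of perirenal adipose tissue from 3 fetal sheep and 3 lambs were analysed. The authors deposited a table of raw counts, methylated and covering reads per CpG position and animal, matched to animals through the sample descriptions. The mapping was to Oar_v3.1, per the series design text. BWA, Picard, Oar_v3.1 and hg19 stand without roles in the submitters' processing notes, with a methylation caller not given in the sources used here. Region lists (UMR, LMR, DMV and DMR) were deposited by the authors as positions alone, and no label says how they were called or which stage the hyper and hypo lists take as reference.

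The windows, classes and comparisons were chosen with earlier results of these data known. Levels are summed methylated over summed covering reads at CpGs that reach 5 reads in all 6 animals. The stage test was a binomial model with the dispersion moderated by limma's squeezeVar and not under 1, two-sided, with a prior dispersion of 1.37 on 14.6 degrees of freedom. Windows were named as the 6 per stage with the largest distance and at least 100 reads in each animal, the 4 variable in both stages with the largest smaller distance and at least 50 reads, and the 3 on each side of the threshold. Windows of the largest group and the 2 in DMRs were named after their values were seen. Positions are on Oar_v3.1. The gene table at hand is on another assembly, so gene names and sequences were not used here, and the planned gene lists were not counted. Deviations of same-numbered animals correlated at 0.00564 to 0.0113, and those of other-numbered animals at -0.0123 to 0.00266. All of these are small, and they do not settle whether replicate numbers pair animals. Alternatives were other minimums of reads and CpGs, distances, window lengths and grids, equal weight per CpG, a coverage limit, leaving out each animal, limma on log2 ratios with a pseudocount of 1, and the replicate number as a block. The tools were limma 3.58.1 in R 4.3.3, and pandas 2.3.3, numpy 2.4.6 and scipy 1.17.1 in Python 3.11.15.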

Additional observations from a re-analysis of the deposited data

Results flagged for a closer look

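The X chromosome lies outside the comparisons above. Of its 13364 windows with the same minimums, 12 (0.0898%) had at least 40 points among fetal animals and 15 (0.112%) among lambs. Their intervals, 0.0514 to 0.157% and 0.0680 to 0.185%, hold the autosomal 0.127 and 0.146%. These shares are given because the comparisons did not use this chromosome. The median distance between the highest and lowest animal was 10.2 points in both stages, against 8.70 and 8.86 over the autosomal windows. The sex of the animals is not given in the labels used here.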

How the results depend on the processing

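The number of variable windows follows the minimums by construction, while the shares by class and density moved with reads. The main values were 581 fetal windows, 668 lamb windows, 29 in both, 51.8% in listed regions and 36.8% with at least 20 CpGs, the last 2 over windows variable in at least 1 stage. In that order they were 1957, 1946, 92, 25.3 and 7.22 with 3 reads per CpG, 0, 2, 0, 100 and 100 with 10 reads, 4632, 4956, 300, 26.3 and 12.3 with 3 CpGs per window, and 59, 65, 4, 80 and 84.2 with 10 CpGs. The windows that entered numbered 458877 with the minimums used, 1154366 with 3 reads, 1395 with 10 reads, 842571 with 3 CpGs and 113855 with 10 CpGs. Entered windows numbered 480793 at 2 kb, 342840 at 0.5 kb and 200209 with at least 50 reads. With 10 reads both shares thus rest on 2 windows. With 3 CpGs the fetal and lamb counts were 0.550 and 0.588% of windows, against 0.127 and 0.146% with the minimums used. A distance of 30 points gave 4710, 5417, 373, 43.8 and 31.5, and 50 points gave 83, 96, 6, 57.8 and 46.2. Windows of 2 kb gave 323, 301, 11, 39.6 and 13.2, and windows shortened to 0.5 kb 867, 1002, 55, 56.4 and 67.8. With at least 50 reads in each animal they were 100, 120, 8, 75 and 71.2. Over all windows that then entered, listed regions held 26.2% with the minimums used, 18.9% with 3 reads, 46.6% with 10 reads, 20.8% with 3 CpGs, 37.9% with 10 CpGs, 29% at 2 kb and 32.6% with at least 50 reads, less than of the chosen windows in each. At least 20 CpGs per kb were found in 40, 21.4, 57.6, 25.9, 78.9, 22.8 and 60.2% of them. Windows chosen at 40 points in at least 1 stage were thus CpG-poorer than all windows with the minimums used, with looser ones and at 2 kb. With stricter minimums they were CpG-richer, for 10 reads on 2 windows alone. Windows chosen at 50 points were CpG-richer with the minimums used, at 46.2% against 40%. The lamb set at 40 points, at 40.4%, was not poorer. The cause was not tested. Leaving out each animal in turn, which takes the distance over the animals left, gave 193 to 252 fetal windows, 210 to 334 lamb windows, 9 to 15 in both, 50.9 to 53.8% listed and 34.3 to 39.4% with at least 20 CpGs. Without the most influential CpG, an alternative chosen after seeing the data, 196 fetal and 206 lamb windows stayed. A shifted grid, equal weight per CpG and the coverage limit left the counts within 1.5 times of the main ones.

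The stage test called 0 windows, and 0 as well with 10 reads per CpG, by limma and with a dispersion allowed under 1. It called 139 of 1154366 windows with 3 reads per CpG and 6 of 113855 with 10 CpGs per window. Without 1 animal it called 0 to 3, namely 1 without fetal animal 1, 3 without fetal animal 3 and 2 without lamb 2. With the replicate number as a block it called 4, all higher in lambs. Whether the numbers pair the animals is not settled, so this fit is given for completeness. With 3 animals per stage and a median of 47.2 reads per animal in the fetal set, a level in 1 window is known only to within wide limits, so single windows under 50 reads are uncertain.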
